A study of Rattus norvegicus with 12 samples.

Results

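Hepatic gene expression was compared between male diet-induced obese Sprague-Dawley rats that took their protein from skim milk powder (the dairy diet) and rats that took it from casein, the main protein of milk, which served as control. The comparison rests on 8 of the 12 arrays in the series, the 4 whose titles name dairy and the 4 whose titles name casein. The rats were 20 weeks old and had eaten freely from their assigned diet for 8 weeks, starting at 12 weeks of age. Every diet was rich in fat and sucrose, held 4.6 kcal per gram and drew 10% of its energy from protein. In the leucine diet casein gave 7.1% and free leucine 2.9% of energy, and its 4 arrays entered the fit only to estimate the spread between arrays. Total RNA of frozen liver was hybridised to Affymetrix Rat Gene 1.0 ST arrays, 1 per sample, which give a log2 signal for each probe set. Skim milk powder also carries whey protein, lactose and minerals, so milk protein and the other parts of the powder cannot be told apart. Replicates are numbered 1 to 4 within a diet, and since the labels do not state that each came from a separate rat, p-values measure the spread between these samples, which may be technical.

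The liver is the first organ to meet absorbed amino acids and sugars. Hepatocytes degrade surplus amino acids and turn carbon from protein and sugar into glucose, fat, bile acids and plasma proteins. When an amino acid is scarce, uncharged tRNA activates the kinase GCN2, which favours translation of the transcription factor ATF4, and ATF4 in turn induces genes of amino acid synthesis and uptake. The comparison asks how a complete dairy protein source alters hepatic gene expression relative to casein, and it is described here for genes other than those of ribosomal proteins and the urea cycle.

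The 8 arrays carried a liver profile. Albumin (Alb), transferrin (Tf) and transthyretin (Ttr) had mean log2 signals of 13.7, 13.49 and 13.22 over all 12 arrays, in a range of values from 1.06 to 14.37. Arrays of the same diet were no more alike than arrays of different diets, with a median r across genes of 0.9609 within casein, 0.958 within dairy and 0.9629 between them, where genes are not independent replicates. The spread of signals over probe sets was narrowest on dairy replicate 3 (SD 2.075) and casein replicate 4 (2.138). Casein replicate 4 also correlated no better with the other casein arrays (median r 0.9625) than with the dairy arrays (0.9678).

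Differences between the diets went with the length of the gene. A score for each array was taken as the median signal of 812 genes under 5 kb minus the median of 1772 genes over 50 kb. Each gene was first centred on its mean over all arrays. Both lists held only genes brighter than the median probe set and left out ribosomal protein genes. The score stood at -0.169, -0.186 and -0.251 on casein replicates 1 to 3 and at 0.308 on casein replicate 4. On dairy replicates 1 to 4 it was 0.096, 0.161, 0.347 and 0.118, so that casein replicate 4 lay among the dairy arrays and the other casein arrays lay below them. In an unnamed probe set, chosen after its values were seen, casein replicate 4 went with its own diet, at 12.62. The other casein arrays were at 11.96 to 12.26 and the dairy arrays at 8.85 to 9.97. It is among the probe sets called between the diets, a choice that favours those where replicate 4 sides with casein. In another of them replicate 4 lay between the diets, at 7.32 beside 5.46 to 5.92 on the other casein arrays and 7.98 to 8.84 on the dairy arrays. Why casein replicate 4 stood apart in length score was not tested, and neither RNA quality nor a swapped sample could be settled from these signals. The median log2 difference, dairy minus casein, was 0.0435 over 1605 genes of at most 2 kb and -0.118 over 1731 genes of 50 to 100 kb. Gene length is given below for only some genes and lists, and its absence beside a result does not mean that length has no part there. That part was not tested beyond a fit with the score as a covariate.

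**Figure D1:**
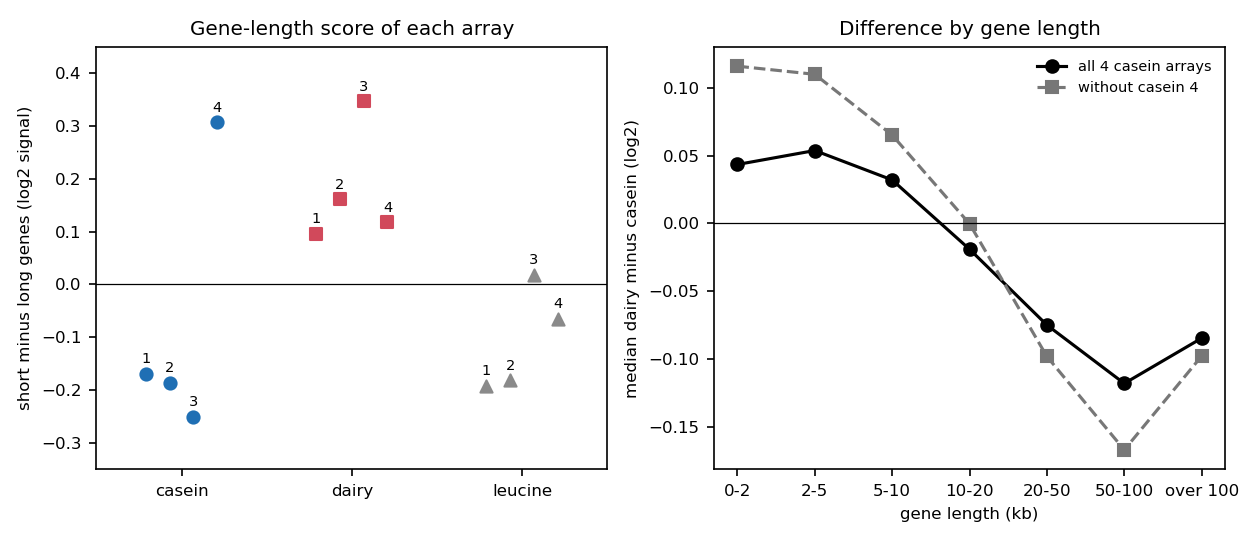
Left, gene-length score of each of the 12 arrays (log2 signal of short minus long genes), by diet, with replicate numbers above the points. Right, median dairy minus casein difference (log2) of the genes in each bin of gene length in kb, with all casein arrays (circles) and without casein replicate 4 (squares). Casein replicate 4, at 0.308, sits with the dairy arrays, which lie between 0.096 and 0.347.

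Over 15310 probe sets with a single gene symbol, limma called 13 between dairy and casein at an adjusted p under 0.05, which is 0.0849%. All 13 measure ribosomal protein genes (5 genes), and these genes rose with dairy. Outside ribosomal proteins and amino acid degradation limma called 0 of 14991 probe sets. In that set the smallest adjusted p was 0.0531, 13 probe sets had an adjusted p under 0.1 (9 higher and 4 lower), and an unadjusted p under 0.05 was reached by 582 higher and 938 lower probe sets (over all 15310, by 702 or 4.59% and 968 or 6.32%). Differences were mostly small: with 1 probe set per gene the interquartile range ran from -0.2375 to 0.1531, 67 genes were higher by more than 1 and 85 lower by more than 1 on the log2 scale, and the median standard error was 0.205. No gene named below passed limma's threshold with all arrays, so the values describe where signals were higher or lower and do not establish a change.

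The 15 genes with higher signals nearest to the threshold have varied roles, and no theme was tested for them. Sf3b5, a small subunit of the SF3B complex that helps U2 snRNP find the branch point, had log2 signals of 6.12, 6.17, 6.36 and 6.51 with casein and 7.43, 7.37, 6.94 and 7.68 with dairy. The diets did not overlap, and the difference was 1.06 ± 0.18 (SE, n = 4 per diet; limma adjusted p = 0.0535), or 2.08-fold. Such a separation was seen upward in 242 of 14506 genes (1.67%) and downward in 326 (2.25%). Chchd2l3, named for its likeness to the mitochondrial protein Chchd2, lay between 7.85 and 8.50 with casein and between 8.93 and 9.59 with dairy. Its difference was 1.17 ± 0.20 (SE; limma adjusted p = 0.0531), a 2nd probe set of the gene differed by 0.735, and near-identical copies make it uncertain which copy was measured. Both genes are short, with 713 bp for Sf3b5 and 672 bp for Chchd2l3. Lengths over the 15 genes ran from 125 bp (LOC366310) to 37978 bp (Reep5).

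Pck2 encodes the mitochondrial form of phosphoenolpyruvate carboxykinase, which turns oxaloacetate into phosphoenolpyruvate. Its signals were 5.37, 5.56, 5.62 and 4.92 with casein and 6.91, 6.81, 6.40 and 5.96 with dairy. All dairy arrays were above all casein arrays, by 1.15 ± 0.22 (SE; limma adjusted p = 0.0772), or 2.22-fold. The leucine arrays, at 5.21, 5.48, 5.29 and 5.09, lay in the range of casein. At 8839 bp Pck2 is not among the shortest genes. Casein replicate 4 was its lowest array, and without that array the difference was 1.00 (limma adjusted p = 0.0465).

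Reep5, a protein that shapes the tubules of the endoplasmic reticulum, lay between 6.91 and 7.77 with casein and between 8.25 and 8.71 with dairy, a difference of 1.02 ± 0.20 (SE; limma adjusted p = 0.0815), although its gene is 37978 bp long. The ubiquitin-conjugating enzyme gene Cdc34 had closely grouped values, from 5.30 to 5.33 on the casein arrays and from 5.95 to 6.05 on the dairy arrays (difference 0.67, limma adjusted p = 0.0873). Srd5a3, which makes the dolichol that carries sugars for protein glycosylation, stood 0.75 higher (limma adjusted p = 0.176). Rpph1, the RNA of the tRNA-trimming enzyme RNase P, stood at 11.78 to 12.45 with casein and 12.74 to 12.96 with dairy. The transcriptional bridging factor Edf1 (0.67), the MHC class I gene RT1-CE15 (0.64), the proteasome subunit Psmb6 (0.47) and the complex III subunits Uqcr11 (1.05) and Uqcrq (0.74) completed the named genes with known roles. RT1-CE15 belongs to a family of near-identical genes, so its signal is uncertain.

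Casein replicate 4 differed from the other casein arrays in some of these genes. Zfp703, a zinc finger repressor of transcription, had signals of 4.44, 4.52, 4.89 and 6.03 with casein and 6.22, 6.75, 6.88 and 6.41 with dairy. The highest casein value was again replicate 4, and the difference was 1.60 with it (limma adjusted p = 0.0772) and 1.95 without it (limma adjusted p = 0.00688). The same array stood apart for the uncharacterised genes LOC366310 (8.21 against 6.23 to 6.54 on the other casein arrays) and Fancd2osl1 (6.76 against 4.41 to 5.69), whose dairy signals were 8.89 to 9.55 and 7.14 to 8.24.

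**Figure D2:**
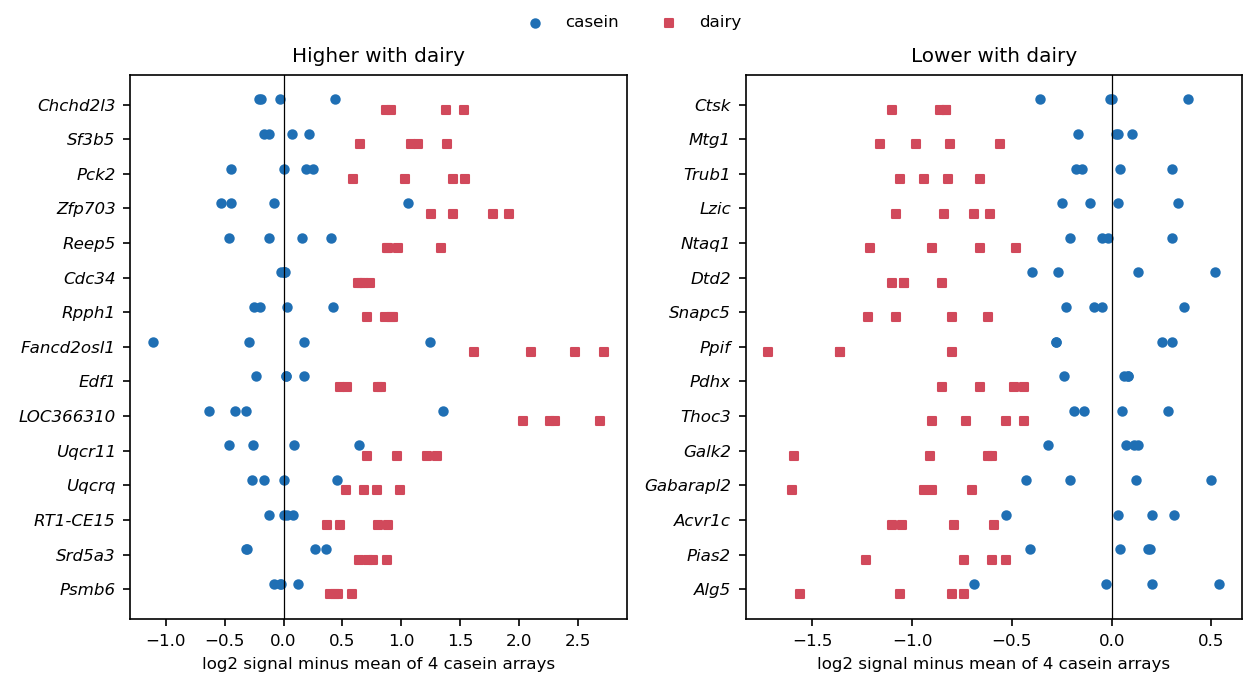
Log2 signal of each array minus the mean of the 4 casein arrays, for the 15 genes higher (left) and the 15 genes lower (right) with dairy that had the smallest p, among genes whose diets did not overlap. Circles are casein and squares dairy arrays. The dairy values of Sf3b5 all exceed its casein values, and those of Ctsk, from 4.70 to 4.97 before centring, all lie below.

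The 15 genes with lower signals nearest to the threshold also have varied roles. Ctsk, the lysosomal protease cathepsin K, had signals of 5.79, 5.44, 6.18 and 5.80 with casein and 4.70, 4.94, 4.97 and 4.97 with dairy. Every dairy array was below every casein array (difference -0.91 ± 0.16 SE, n = 4 per diet, limma adjusted p = 0.0583), and leaving out casein replicate 4 gave the same difference to 2 decimals (limma adjusted p = 0.0363). Mtg1, a GTPase that assists assembly of the mitochondrial ribosome, had signals of 7.96, 7.89, 7.69 and 7.88 with casein and 6.88, 7.05, 6.70 and 7.30 with dairy (difference -0.87 ± 0.16 SE, limma adjusted p = 0.0618). Trub1, which makes pseudouridine in tRNA, lay between 5.91 and 6.39 with casein and between 5.03 and 5.43 with dairy (difference -0.87 ± 0.16 SE, limma adjusted p = 0.0633). For both, casein replicate 4 did not stand apart from the other casein arrays.

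Dtd2, which removes D-amino acids from mischarged tRNA, lay between 7.74 and 8.66 with casein and between 7.04 and 7.29 with dairy. Ppif, the cyclophilin D that regulates the mitochondrial permeability pore, differed by -1.31, with casein signals of 7.55 to 8.13 and dairy signals of 6.11 to 7.03 (limma adjusted p = 0.146). The genes Gabarapl2 (an autophagosome protein, -1.03), Alg5 (a glucosyltransferase of dolichol, -1.05) and Galk2 (a kinase of N-acetylgalactosamine, -0.93) followed. Acvr1c, the activin and nodal receptor ALK7, differed by -0.89, and Pdhx, which anchors the dihydrolipoamide dehydrogenase of the pyruvate dehydrogenase complex, by -0.61. Ntaq1 (an N-terminal glutamine amidase, -0.82), Snapc5 (a factor for snRNA gene transcription, -0.93), Thoc3 (mRNA export, -0.65), Pias2 (a SUMO ligase, -0.78) and Lzic (-0.80) were the others. Adjusted p by limma ran from 0.0583 to 0.176 over the 15 genes on this side. Their lengths ran from 3566 bp (Snapc5) to 132900 bp (Galk2). In several of these genes casein replicate 4 was the casein array nearest to dairy. Examples are Alg5 (6.69 against 7.35 to 7.92 on the other casein arrays), Acvr1c (6.12 against 6.68 to 6.96) and Pias2 (8.11 against 8.56 to 8.71). In others, such as Galk2 (7.86 against 7.41 to 7.84), it was not.

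The gene lists were read by their counts, beside the background over all 14506 genes. They were chosen with earlier results of these data known, so a count above that background is a description and not an independent test. In that background 46.7% of genes had higher and 53.3% lower signals with dairy, and the median difference was -0.0231. An unadjusted p under 0.05 was reached by 4.07% of all genes in the higher and 6.45% in the lower direction. No member of these lists passed limma's threshold. In bulk tissue, fewer cells of a type and less RNA per cell cannot be told apart.

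**Figure D3:**
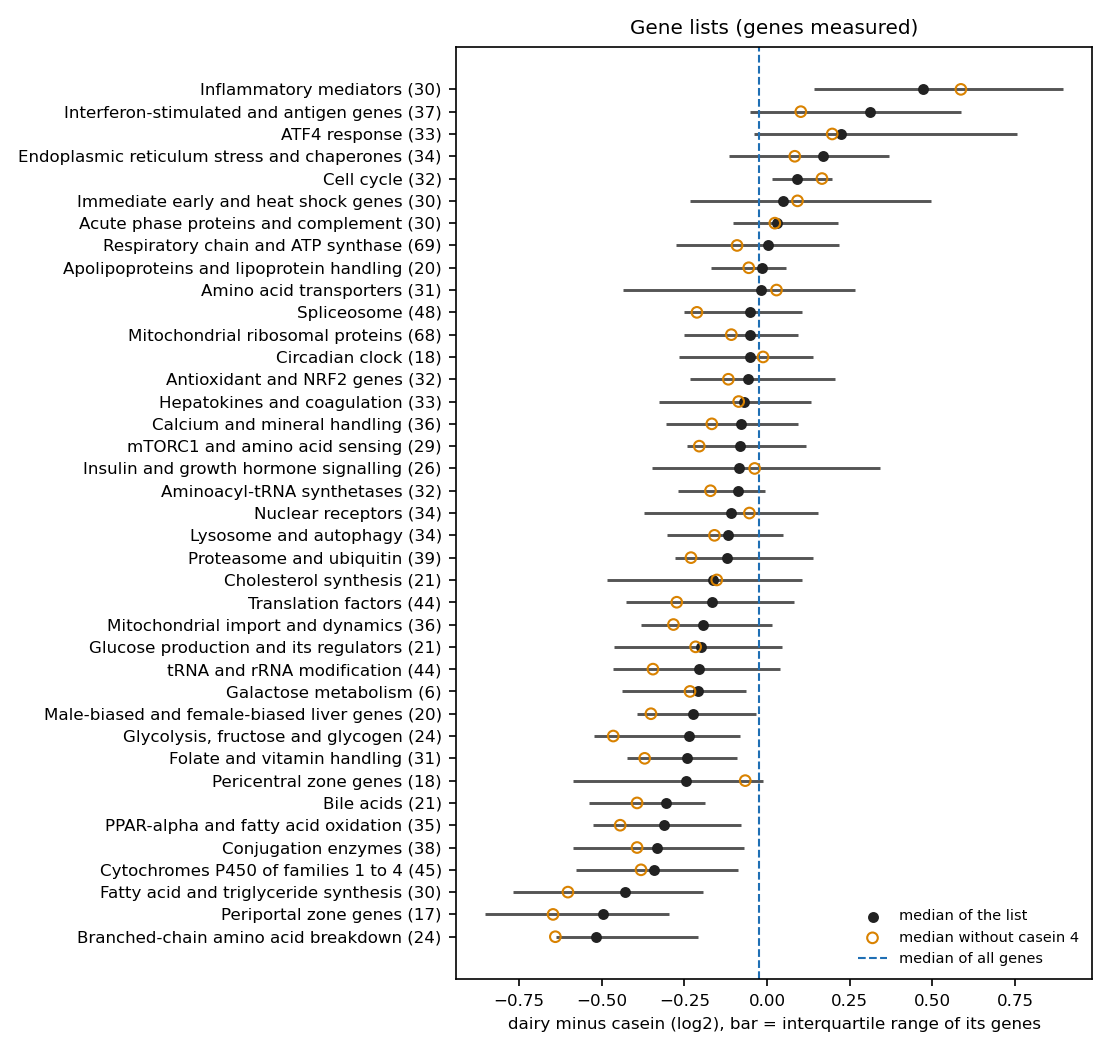
Median dairy minus casein difference (log2) of the measured genes of each list (filled points), the interquartile range over those genes (bars) and the median without casein replicate 4 (open points). The dashed line is the median of all genes, -0.0231. Cell type marker lists and the amino acid degradation list are not plotted. Among the lists plotted, branched-chain amino acid breakdown has the lowest median (-0.516) and inflammatory mediators the highest (0.471).

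Genes of the ATF4 response had higher signals with dairy more often than genes at large. Of 33 measured members 23 were higher and 10 lower, with a median difference of 0.224. An unadjusted p under 0.05 was reached by 7 on the higher side (21.2%) and by 2 on the lower side. With the gene-length covariate the median was 0.0901. Pck2, described above, had the smallest p of the list. Phgdh, the first enzyme of serine synthesis, came next. It had signals of 4.28, 4.57, 4.19 and 5.46 with casein and 6.67, 5.32, 6.56 and 5.67 with dairy, a difference of 1.43 ± 0.36 (SE; limma adjusted p = 0.204) in which casein replicate 4 and dairy replicate 2 overlapped. Psat1, the second enzyme of that route, had signals of 4.60, 4.96, 5.59 and 5.73 with casein and 6.87, 5.53, 6.62 and 6.75 with dairy (difference 1.22, limma adjusted p = 0.32). Psph, which completes the route, differed by only 0.171, and the serine hydroxymethyltransferase Shmt2, which uses serine in mitochondria, was lower by a difference of -0.26.

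Trib3, a pseudokinase that restrains AKT and ATF4, lay between 4.58 and 4.99 with casein and between 5.59 and 6.30 with dairy, with no overlap (difference 1.16 ± 0.31 SE, limma adjusted p = 0.228). Ddit4, an inhibitor of mTORC1, did not overlap either, with casein signals of 5.66 to 6.42 and dairy signals of 6.60 to 7.70. Asns, the asparagine synthetase, varied more, with 5.22, 4.42, 6.61 and 5.90 on casein arrays and 6.50, 7.24, 6.17 and 7.05 on dairy arrays, and casein replicate 3 lay inside the dairy range (difference 1.2 ± 0.48 SE, limma adjusted p = 0.403). Eif4ebp1, the repressor of cap-dependent translation, stood at 6.74, 6.97 and 7.24 on casein replicates 1 to 3 and at 8.47 on replicate 4, above its 4 dairy values of 7.94 to 8.35. Without casein replicate 4 limma called 3 members of the list as higher, namely Pck2, Phgdh and Eif4ebp1 (adjusted p = 0.0465, 0.0371 and 0.027). Atf4 itself differed by 0.25 and Ddit3 by -0.04.

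The hormone Fgf21, an ATF4 and PPAR-alpha target, ranged from 4.94 to 7.87 with casein and from 5.42 to 9.19 with dairy. Its difference of 0.40 turned to -0.222 without casein replicate 3 and -0.266 without dairy replicate 3. At the other end of the list Cth, which makes cysteine from cystathionine, was at 10.82 to 11.32 with casein and at 11.53, 10.25, 10.23 and 9.93 with dairy, so that dairy replicate 1 lay above all casein arrays and the other dairy arrays below them. Cth and 2 further members (Gpt2 and Pycr1) also belong to the amino acid degradation genes.

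**Figure D4:**
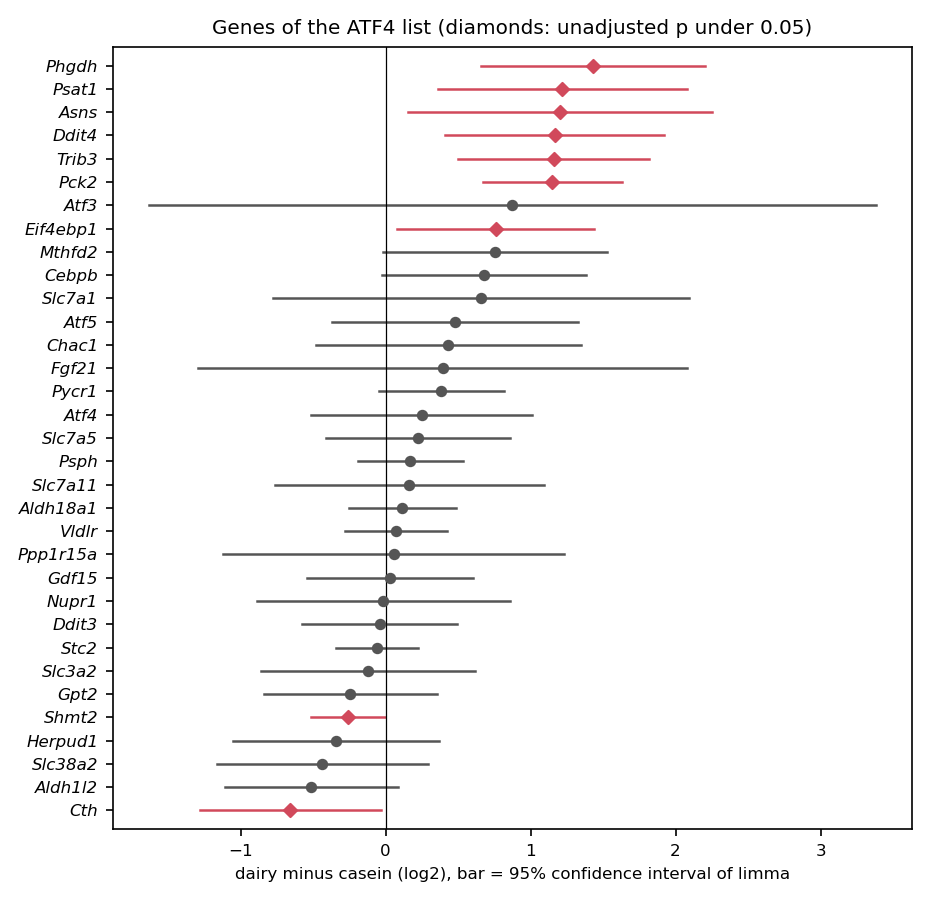
Dairy minus casein difference (log2) of each of the 33 measured ATF4 list genes, with the 95% confidence interval from limma as bars. Diamonds mark an unadjusted p under 0.05. The 6 highest genes, from Phgdh (1.43) to Pck2 (1.15), have intervals above 0, and Cth (-0.66) is lowest.

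ATF4 binds composite C/EBP-ATF sites, written here as TGATGNAAN and searched on both strands. The windows were RefSeq promoters of build GRCr8, from 250 bases before to 50 bases after each start. A match was present in 1050 of 27457 windows (3.82%) and in 8 of the 30 list genes that had a window (26.7%). The promoters of Pck2 and Trib3 are shown because both genes have a match and did not overlap between diets, and that of Pycr1, an enzyme of proline synthesis, because its match reads TGATGCAAT on the strand of the gene. Capitals mark the match. The windows lie at chr15:32997603-32997902 (plus strand) for Pck2, chr3:161275484-161275783 (minus strand) for Trib3 and chr10:106420763-106421062 (minus strand) for Pycr1.
Pck2: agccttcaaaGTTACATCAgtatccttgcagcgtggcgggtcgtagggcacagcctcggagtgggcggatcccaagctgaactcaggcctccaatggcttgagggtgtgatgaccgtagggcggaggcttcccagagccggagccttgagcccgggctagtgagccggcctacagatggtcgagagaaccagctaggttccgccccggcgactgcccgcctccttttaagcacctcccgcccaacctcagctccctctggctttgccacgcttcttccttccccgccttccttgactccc
Trib3: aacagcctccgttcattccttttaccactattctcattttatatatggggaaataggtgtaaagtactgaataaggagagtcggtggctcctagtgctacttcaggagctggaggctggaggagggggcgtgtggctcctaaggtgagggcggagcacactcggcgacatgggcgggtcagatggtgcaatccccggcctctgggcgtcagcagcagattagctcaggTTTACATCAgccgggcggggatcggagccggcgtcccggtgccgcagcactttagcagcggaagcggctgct
Pycr1: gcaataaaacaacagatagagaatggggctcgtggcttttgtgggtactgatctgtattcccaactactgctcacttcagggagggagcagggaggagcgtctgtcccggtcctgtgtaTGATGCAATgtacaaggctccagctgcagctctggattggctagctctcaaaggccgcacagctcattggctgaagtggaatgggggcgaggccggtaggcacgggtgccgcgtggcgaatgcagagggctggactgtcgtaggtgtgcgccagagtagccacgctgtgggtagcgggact

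The match begins 240 bases before the start in Pck2, 22 bases before it in Trib3 and 131 bases before it in Pycr1, and it lies on the opposite strand in Pck2 and Trib3. The other list genes with a match were Chac1 and Herpud1 (GTTGCATCA), Nupr1 and Fgf21 (ATTGCATCA) and the cationic amino acid transporter Slc7a1 (TGATGAAAC). Of the 8 genes with a match 6 had higher signals with dairy, a share near that of the whole list (23 of 33). The 6 were Pck2 (1.15), Trib3 (1.16), Slc7a1 (0.66), Chac1 (0.43), Fgf21 (0.40) and Pycr1 (0.38). Herpud1 (-0.34) and Nupr1 (-0.02) were lower. A link between match and direction was not tested. These letters are not in the windows of Phgdh, Psat1, Asns or Ddit4. A match is a description of the sequence and not evidence of binding.

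Genes that break down branched-chain amino acids had lower signals with dairy. Of 24 measured members 21 were lower, 11 of them (45.8% of the list) at an unadjusted p under 0.05, which 0 of the higher ones reached, and the median was -0.516. In the leucine branch Ivd, the isovaleryl-CoA dehydrogenase, stood at 9.66, 9.33, 9.30 and 9.04 with casein and at 9.02, 8.70, 8.71 and 8.74 with dairy. Mccc1 and Mccc2, the subunits of methylcrotonyl-CoA carboxylase, lay between 7.46 and 7.93 and between 7.71 and 8.42 with casein, against 6.76 to 7.46 and 7.13 to 7.69 with dairy. Ivd, Mccc1, Mccc2 and Dbt (the transacylase core of the branched-chain dehydrogenase, difference -0.502) were the 4 members whose dairy arrays all lay below the casein arrays. The phosphatase Ppm1k, which activates that dehydrogenase, had the lowest value (-1.2 ± 0.58 SE) and a wide spread, from 7.59 to 9.43 with casein and 6.52 to 8.28 with dairy. Bcat2, the aminotransferase found mainly outside the liver, was higher on all 4 dairy arrays, by 0.26, with casein signals of 4.79 to 4.92 and a highest dairy signal of 5.31. No member passed limma's threshold without casein replicate 4, and with the gene-length score as a covariate the list median was -0.219.

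Transporters of amino acids showed no common direction (14 higher, 17 lower, median -0.0193), but a few carriers of the hepatocyte membrane stood out. Slc16a10, which exports aromatic amino acids, had signals of 8.80, 8.54, 8.81 and 9.40 with casein and 6.59, 7.53, 6.68 and 8.58 with dairy (difference -1.54 ± 0.42 SE, limma adjusted p = 0.246). Only dairy replicate 4 entered the casein range. The system A carrier Slc38a4 (-0.56) and the glutamine carrier Slc38a3 (-0.43) were lower, and Slc38a1, with low signals of 3.36 to 4.12, was higher by 0.351. In the list of mTORC1 and amino acid sensing genes 9 of 29 were higher and 20 lower, with a median of -0.0828 (0.031 with the gene-length covariate), and Eif4ebp1 alone was past an unadjusted p of 0.05.

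Lists of lipid metabolism mostly had lower signals with dairy. In fatty acid oxidation and PPAR-alpha targets 29 of 35 genes were lower with a median of -0.312, and 4 lower ones, 11.4% of the list, had an unadjusted p under 0.05. Ehhadh, the bifunctional enzyme of peroxisomal oxidation, had signals of 11.36, 11.64, 11.16 and 11.08 with casein and 10.83, 10.21, 10.32 and 9.63 with dairy, without overlap (difference -1.06 ± 0.28 SE, limma adjusted p = 0.237). The fatty acid importer Slc27a2 (-0.52), the medium-chain dehydrogenase Acadm (-0.67) and the scavenger receptor Cd36 (-0.97) overlapped between diets. The member with the highest value, Angptl4, an inhibitor of lipoprotein lipase, stood at 10.45 on casein replicate 3, 10.15 on dairy replicate 2 and 10.29 on dairy replicate 4, and between 6.48 and 8.55 on the other arrays. The list median was -0.0164 with the gene-length covariate.

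Fatty acid and triglyceride synthesis had 26 of 30 genes lower and a median of -0.428, but only 1 gene, the elongase Elovl2, had an unadjusted p under 0.05. Arrays of the same diet varied widely. Fasn, the fatty acid synthase, had signals of 10.94, 11.42, 8.36 and 8.73 with casein and 10.99, 8.87, 9.38 and 7.92 with dairy, and the desaturase Scd ran from 8.63 to 12.70 and from 8.48 to 11.45. Casein replicates 1 and 2 and dairy replicate 1 were high for Fasn and also for Pnpla3, a lipase of lipid droplets, whose casein signals were 9.60, 11.39, 6.52 and 5.18 and whose dairy signals were 10, 5.64, 6.14 and 4.75. The list median lay at -0.263 without casein replicate 1 and at -0.704 without dairy replicate 1, and it was -0.0831 with the gene-length covariate.

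Cholesterol synthesis showed less (14 of 21 lower, 0 at an unadjusted p under 0.05, median -0.163). Its regulator Srebf2 was at 7.44 to 7.88 with casein and at 8.44, 8.27, 7.94 and 7.77 with dairy. Apolipoproteins were evenly divided (10 higher, 10 lower), with hepatic lipase Lipc lower by a difference of -0.74 without overlap. Among bile acid genes 19 of 21 were lower with a median of -0.306. Cyp27a1, which starts the acidic route of bile acid synthesis, lay between 10.00 and 10.34 with casein and between 9.33 and 9.83 with dairy (difference -0.61, limma adjusted p = 0.355). Cyp7a1, the rate-limiting enzyme of the classic route, ranged from 5.42 to 9.92 with casein and from 6.05 to 7.32 with dairy, and casein replicate 3 alone lay below the dairy arrays.

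Glucose metabolism had few genes apart between the diets. Ppargc1a, the coactivator that drives gluconeogenic and mitochondrial genes in fasting, had signals of 4.32, 4.47, 5.93 and 4.81 with casein and 3.80, 3.48, 3.78 and 4.07 with dairy. The difference was -1.10 ± 0.33 (SE; limma adjusted p = 0.295), and casein replicate 3 stood above the others. The enzymes that Ppargc1a is known to induce were not apart, with Pck1 at 10.80 to 12.36 with casein and 10.99 to 11.96 with dairy, and G6pc1 at 7.09 to 11.79 and 7.16 to 10.91. Cebpa, a transcription factor of hepatocyte metabolism, was higher with dairy without overlap, at 8.26 to 8.99 against 9.08 to 10.32 (difference 0.84, limma adjusted p = 0.327). The list of glucose production and its regulators counted 15 of 21 genes lower with a median of -0.199.

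In glycolysis, fructose and glycogen metabolism 20 of 24 genes were lower, with a median of -0.235, which turned to 0.138 with the gene-length covariate. Pgk1 (phosphoglycerate kinase, -0.63) and Sord (sorbitol dehydrogenase, -0.75) were past an unadjusted p of 0.05. Galactose, which comes from the lactose of milk, is taken up by the Leloir route. Of 6 measured galactose genes 5 were lower, with a median of -0.209 that turned to 0.0718 without dairy replicate 3. Galt, the uridylyltransferase of that route, lay between 6.18 and 7.49 with casein and between 6.63 and 7.53 with dairy. Its difference was 0.05 (95% confidence interval of limma -0.54 to 0.637).

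Enzymes that handle drugs and steroids had lower signals. Of 45 cytochromes P450 in families 1 to 4, 35 were lower, with a median of -0.343 (-0.222 with the gene-length covariate). An unadjusted p under 0.05 was found for 9 lower ones, which is 20% of the list. Cyp2c23, an arachidonic acid epoxygenase, lay between 11.91 and 12.53 with casein and between 11.06 and 12.02 with dairy (difference -0.85, limma adjusted p = 0.25). Cyp2c12, female-specific in rat liver, had the largest difference (-2.04), with 8.47 to 9.77 against 6.40 to 8.25, though near-identical Cyp2c genes make the source of this signal uncertain in male rats. Cyp2e1, the ethanol-inducible form of the pericentral zone, stood at 12.01 on dairy replicate 1 and at 10.60 to 11.36 on the other dairy arrays, against 11.72 to 12.39 with casein. The male-specific Cyp2c11, a read-out of pulsatile growth hormone, overlapped fully (-0.35 ± 0.37 SE) and was 0.191 with the gene-length covariate.

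Conjugation enzymes gave a like picture, with 30 of 38 lower, 6 of them at an unadjusted p under 0.05, and a median of -0.333 (-0.196 with the gene-length covariate). Gstm7, a glutathione transferase, had signals of 9.11, 9.49, 8.64 and 9.63 with casein and 8.77, 7.20, 8.01 and 7.33 with dairy (difference -1.39 ± 0.33 SE, limma adjusted p = 0.174). Ugt2b1, a glucuronosyltransferase for steroids, had signals of 9.47, 9.80, 8.11 and 8.23 with casein and 8.37, 6.43, 6.47 and 6.60 with dairy. For both, dairy replicate 1 was the only dairy array inside the casein range. Gstk1, the peroxisomal and mitochondrial form, did not overlap (-1.13 ± 0.28 SE, limma adjusted p = 0.204). Papss1, which makes the sulfate donor PAPS, was higher (0.67).

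Insulin and growth hormone signalling genes counted 11 higher and 15 lower, 5 of the latter at an unadjusted p under 0.05. Gsk3b, the kinase that inhibits glycogen synthase, was at 7.79 to 8.42 with casein and at 6.90 to 7.70 with dairy, without overlap (difference -0.82, limma adjusted p = 0.305). The insulin receptor Insr (-0.64) and the hormone Igf1 (-0.49) overlapped in part, and a 2nd probe set of Insr differed by only -0.116. All 3 genes are long (Gsk3b 150164 bp, Insr 138141 bp, Igf1 79839 bp). Prlr, the prolactin receptor, was lower (-1.24), with 3.83 on dairy replicate 2. Among 34 nuclear receptors 14 were higher and 20 lower, Nr2f6, an orphan receptor that represses transcription, was higher without overlap (6.25 to 6.77 against 6.85 to 8.03), and the glucocorticoid receptor Nr3c1 was lower (-0.65). Clock genes showed 0 members at an unadjusted p under 0.05 out of 18 by limma.

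Genes of the periportal zone, where blood enters the liver lobule, were lower in 17 of 17 cases, with a median of -0.496 that was -0.248 with the gene-length covariate. Of these, 7 are also urea cycle or amino acid degradation genes. The other 10 were all lower as well, 1 of them (Igf1) at an unadjusted p under 0.05, with a median of -0.334. Pericentral genes were lower in 14 of 18 cases, with a median of -0.244 that was -0.066 without casein replicate 4 and -0.502 with the gene-length covariate.

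Genes of the respiratory chain showed no common direction. Of 69 subunits, ATP synthase included, 36 were higher and 33 lower. An unadjusted p under 0.05 was found for 9 higher (13%) and 6 lower subunits (8.7%). Uqcrq, a small subunit of complex III, had signals of 9.35, 9.45, 9.62 and 10.07 with casein and 10.61, 10.30, 10.41 and 10.15 with dairy. Uqcr11 lay between 8.78 and 9.88 with casein and between 9.95 and 10.54 with dairy. For both, casein replicate 4 was the casein array nearest to dairy. Atp5po, the subunit that joins the stalk of ATP synthase to its head, was higher by 0.71, and Cox6a1 and Cox7a2l of complex IV by 0.42 and 0.61. Lower genes included the complex I subunits Ndufs1 (-0.66) and Ndufa9 (-0.57) and the central stalk subunit Atp5f1c (-0.49, 6.32 to 6.39 with dairy against 6.64 to 7.08).

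Among the higher subunits gene length was 4716 bp for Uqcr11, 7181 bp for Uqcrq and 6313 bp for Atp5po. Among the lower ones it was 33320 bp for Ndufs1 and 22289 bp for Atp5f1c. Lengths of the other members are not given here, so these values do not describe the higher and lower subunits as groups. Atp5mg, another ATP synthase subunit, stood at 5.40 to 6.21 on casein replicates 1 to 3, at 8.47 on replicate 4 and at 7.18 to 7.80 with dairy. Mitochondrial ribosomal proteins were divided (28 higher, 40 lower of 68), with Mrps16 highest (0.51) and Mrpl42 lowest (-0.85), and neither overlapped between diets. Import and dynamics genes were lower in 26 of 36 cases, with a median of -0.194 that turned to 0.0417 with the gene-length covariate. They included the fission genes Fis1 (-0.41) and Dnm1l (-0.66), while Timm13, a chaperone of the intermembrane space, was higher (0.36) without overlap.

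The list of tRNA and rRNA modification, which also holds genes of other steps such as Mtg1 and Dtd2, had mostly lower signals. Of 44 members 31 were lower with a median of -0.206. An unadjusted p under 0.05 was found for 10 lower members (22.7%) and 0 higher ones. The median was -0.041 without dairy replicate 3 and -0.0984 with the gene-length covariate, and its sign turned with array weights. Besides Mtg1, Trub1 and Dtd2 these included Trmt11, a methyltransferase of tRNA, at 5.78 to 6.50 with casein and 5.10 to 6.05 with dairy, and Tyw1, which makes wybutosine, at 7.23 to 7.67 against 6.69 to 7.19. Without casein replicate 4 limma called 3 members, all lower. Spliceosome genes had no common direction (20 higher, 28 lower). Translation factors had 5 higher and 4 lower of 44 at an unadjusted p under 0.05. Tpt1 (translationally controlled tumour protein, 0.42), Rack1 (a scaffold on the small subunit, 0.64) and Eif3k (0.41) were among the higher ones, and Eif3h (-0.78), Btf3 (-0.69) and Eif4b (-0.37) were lower without overlap. Tpt1 is encoded, like ribosomal proteins, by a mRNA of the 5' terminal oligopyrimidine class. Whether the other factors named here, higher or lower, belong to that class was not examined, so no direction of the class is given. Aminoacyl-tRNA synthetases were lower in 24 of 32 cases, with a median of -0.0888 that turned to 0.0563 without dairy replicate 3 and 0.0889 with the gene-length covariate, and with the mitochondrial Yars2 (-0.75) lowest.

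Endoplasmic reticulum genes leaned upward. Of 34 genes 22 were higher with a median of 0.17, and 5 higher ones (14.7% of the list) and 0 lower ones had an unadjusted p under 0.05. Sec61g, a subunit of the channel that passes nascent proteins into the endoplasmic reticulum, lay between 6.53 and 7.74 with casein and between 7.86 and 8.86 with dairy (difference 1.29 ± 0.32 SE, limma adjusted p = 0.199). Spcs1 of the signal peptidase (8.04 to 8.30 against 8.45 to 8.87) and Selenos of the degradation pathway (6.79 to 7.25 against 7.38 to 8.02) did not overlap either. The median was -0.00635 without dairy replicate 4. In the proteasome list 14 genes were higher and 25 lower, and the 4 higher ones at an unadjusted p under 0.05 included Pomp, the assembly chaperone (7.17 to 8.45 against 8.57 to 8.81), Psmb6 and Psmb3 (0.71). Pomp stood at 8.45 on casein replicate 4, the nearest to dairy.

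Lysosomal and autophagy genes were lower in 23 of 34 cases, 5 of them (14.7% of the list) at an unadjusted p under 0.05, with a median of -0.117 that was -0.0186 without dairy replicate 3 and -0.0421 with the gene-length covariate. Beside Ctsk these included the acid lipase Lipa (-1.17, 9.27 to 10.73 with casein and 8.35 to 9.94 with dairy) and the membrane protein Lamp2 (-0.75). The antioxidant list had 14 higher and 18 lower genes. Prdx6, a peroxiredoxin that repairs membrane lipids, was higher without overlap, at 8.49 to 9.26 against 9.36 to 9.88, and Gpx1, the main glutathione peroxidase of liver, was lower, at 11.54 to 12.20 against 11.02 to 11.54. In the list of calcium and mineral handling, relevant to a milk diet, 15 genes were higher and 21 lower, and the iron exporter Slc40a1 (-0.97), the calcium channel Itpr2 (-0.64) and the phosphate carrier Slc20a2 (-0.59) were past an unadjusted p of 0.05. Folate and vitamin genes were lower in 25 of 31 cases, with a median of -0.243 that was -0.0803 with the gene-length covariate.

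Among plasma proteins that the liver secretes, hepatokines and coagulation factors had 16 higher and 17 lower genes, and those at an unadjusted p under 0.05 were all lower (5 of 33, or 15.2%, against 6.45% of all genes), among them the factor XIII subunit F13b (-0.58), the anticoagulant protein C gene Proc (-0.35) and the carrier protein fetuin-A, Ahsg (-0.49). Acute phase and complement genes were higher in 20 of 30 cases with a median of 0.0314, and the pentraxin Apcs (0.56) alone was past an unadjusted p of 0.05. A2m, the protease inhibitor alpha-2-macroglobulin, had the highest value of that list (2.02 ± 1.31 SE) with overlapping signals of 5.98 to 12.24 with casein and 10.55 to 12.90 with dairy. The list of sex-biased liver genes pools male-biased and female-biased genes, so its count and median give no direction of either kind. Its genes were lower in 15 of 20 cases, with a median of -0.223. That median was -0.0791 without casein replicate 2 and 0.00618 with the gene-length covariate. Besides Cyp2c12 and Prlr, the alcohol dehydrogenase Adh6 differed by -1.94 ± 0.54 (SE; limma adjusted p = 0.255). Immediate early and heat shock genes (16 higher, 14 lower of 30) and cell cycle genes (25 higher, 7 lower of 32) had medians of 0.0489 and 0.0914, and each list held 1 gene higher and 1 lower at an unadjusted p under 0.05. These were the AP-1 member Jund (0.78) and the chaperone Hspa4l (-0.90), and the tubulin Tubb5 (0.73) and the kinase Cdk4 (-0.48).

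Immune genes varied widely between arrays of the same diet. Neutrophil markers were higher with dairy in 13 of 13 cases (median 0.598), yet only Ncf1, a subunit of the phagocyte oxidase, had an unadjusted p under 0.05. Their mean signal was 4.139, 3.983, 5.922 and 5.072 on the casein arrays and 4.616, 6.108, 4.686 and 6.5 on the dairy arrays. Inflammatory mediators were higher in 24 of 30 cases, 0 of them at an unadjusted p under 0.05 by limma, and the median of 0.471 was 0.0493 without dairy replicate 4 and 1.12 without casein replicate 3. Casein replicate 3 and dairy replicates 2 and 4 were the high arrays in both lists. Both lists hold Lcn2, S100a8 and S100a9, so they are not independent. Lcn2 had a mean signal of 11 over all arrays, and the other neutrophil markers were dimmer, from 3.711 (Elane) to 5.943 (Ncf4).

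Interferon-stimulated and antigen genes had 25 of 37 members higher and a median of 0.312, which turned to -0.16 without dairy replicate 2. Their 4 members at an unadjusted p under 0.05 all act in antigen presentation. The invariant chain Cd74 stood at 9.18, 9.27, 9.91 and 10.31 with casein and at 10.31, 10.83, 9.70 and 10.72 with dairy, and the class II gene RT1-Ba at 5.76, 5.77, 5.79 and 6.66 and at 6.90, 7.16, 6.11 and 7.38. Tapbp (0.99) and RT1-Db1 (0.47) were the others. For Cd74 and RT1-Ba, dairy replicate 3 was the lowest dairy array and casein replicate 4 the highest casein array.

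**Figure D5:**
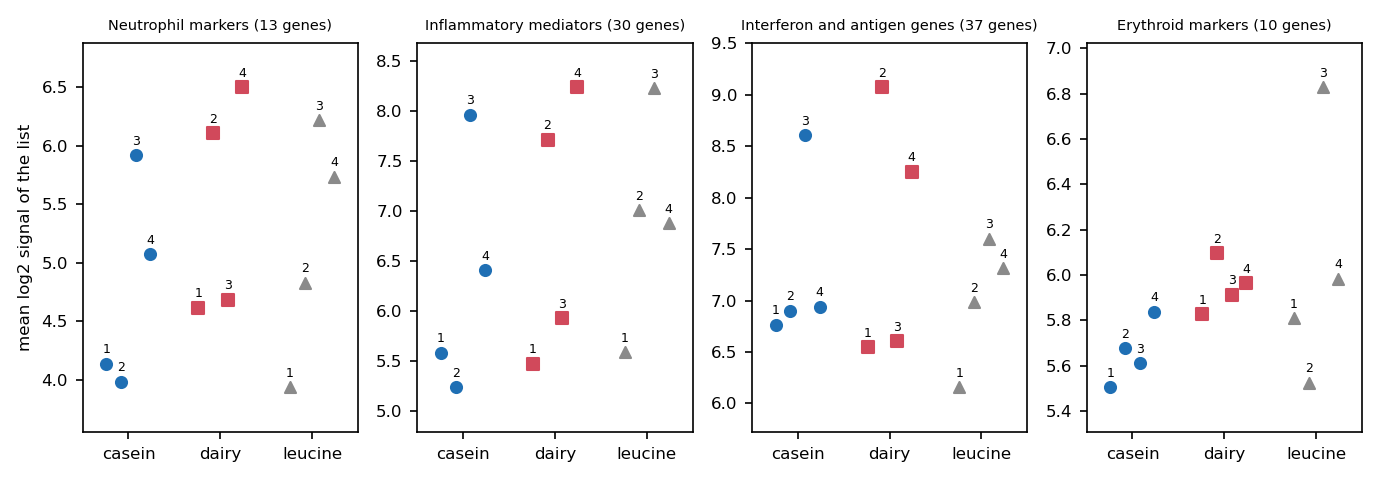
Mean log2 signal of each list on each of the 12 arrays, by diet, with replicate numbers above the points. Casein replicate 3 and dairy replicates 2 and 4 are high for neutrophil markers and inflammatory mediators, and the other arrays of these diets are lower, so both diets hold high and low arrays.

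Markers of other cell types were measured beside these lists. Erythroid markers, which come with blood, were higher in 8 of 10 cases (median 0.286), with mean signals of 5.505 to 5.839 with casein and 5.829 to 6.097 with dairy. The median was 0.134 without dairy replicate 3 and -0.00808 with the gene-length covariate. The beta globin gene Hbb was at 8.76, 9.88, 10.00 and 10.12 with casein and at 10.61, 10.94, 10.75 and 10.74 with dairy, and it did not overlap. The erythroid marker Ahsp had a mean signal of 2.4, near the lower end of the array. Hepatocyte markers were lower in 10 of 13 cases (median -0.11, or -0.00614 with the gene-length covariate), with mean signals of 12.46 to 12.69 with casein and 12.18 to 12.52 with dairy. Stellate cell and fibrosis markers were higher in 14 of 20 cases (median 0.145), with Des, Col4a1 and Loxl2 at an unadjusted p under 0.05.

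Kupffer cell and macrophage markers (6 higher, 7 lower), lymphocyte markers (9 higher, 6 lower), endothelial markers (2 higher, 7 lower) and cholangiocyte markers (2 higher, 7 lower) had medians between -0.2 and 0.0636. Adipocyte, pancreas and skeletal muscle markers had medians of 0.16, 0.123 and 0.157 (-0.108, -0.0915 and 0.0266 with the gene-length covariate), with mean signals of their lists from 3.705 to 5.476. The part of blood, immune cells and the hepatocyte share in the gene differences above was not tested.

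Leaving out casein replicate 4 changed the count of calls most among the single arrays. Without it limma called 237 probe sets (1.55%), 161 higher (1.05%) and 76 lower (0.496%), and the 13 called with all arrays were among them. Outside ribosomal proteins and amino acid degradation 163 were called (90 higher and 73 lower, 156 genes). Among these, higher genes had a median length of 6155.5 bp and lower genes of 33638 bp, against 18033.5 bp over all genes. Leaving out casein replicate 1 or dairy replicate 1 gave 3 calls, casein replicate 2 gave 6, dairy replicate 2 and leucine replicate 1 gave 7 each, and dairy replicate 4 and leucine replicate 3 gave 8 each, with none outside the ribosomal genes.

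In this fit the histone genes Hist1h2bg and H2bc12, the transcription factor subunit Taf10 and Atp5mg were among the higher genes with the smallest adjusted p. Taf10 had casein signals of 7.70, 7.68, 7.76 and 9.04 and dairy signals of 8.63 to 8.97, and Hist1h2bg had 6.26, 6.21, 6.06 and 7.52 against 7.19 to 7.51. In both the left-out array lay above all dairy arrays. Adm2, the peptide hormone intermedin, had 4.17, 3.95, 3.88 and 5.23 with casein and up to 5.90 with dairy (difference 1.48 in this fit, limma adjusted p = 0.0149). Among the lower genes were Pggt1b, a prenyltransferase subunit (7.24, 7.03, 6.90 and 5.81 against 5.76 to 6.13), the activin receptor Acvr2a (8.21, 8.03, 7.81 and 6.68 against 6.45 to 7.05) and the mitochondrial glutathione carrier Slc25a40 (5.97, 5.95, 6.51 and 3.92 against 3.83 to 4.24). Akr1c3, an aldo-keto reductase of steroids, was lower with and without that array (-1.07 and -1.31), and its diets did not overlap. With the gene-length score of each array as a covariate limma called 0 probe sets, ribosomal ones included. That score is made from the same signals and separates 3 casein arrays from the dairy arrays, so the covariate also takes up part of any difference between diets.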

How the data were processed

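The 12 liver RNA samples were each run on a Rat Gene 1.0 ST array. The authors deposited log2 signals per probe set, and the submitters' processing notes name Affymetrix Expression Console. Its version, its summary algorithm and a genome build were not given in the sources used here. Of 29214 probe sets, 15310 pair with 1 gene symbol in the platform annotation (14506 genes), 323 with several and 13581 are unnamed here. The deposited log2 values were used without further normalization. limma 3.58.1 in R 4.3.3 fitted diet over all 12 arrays (lmFit, eBayes; 9 residual degrees of freedom), with Benjamini-Hochberg adjustment over 15310 probe sets and a threshold of 0.05. The number of arrays limits the precision. The procedure was tested on simulated data.

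The members and gene lists were chosen with earlier results of these data known. A gene is represented by its brightest probe set. Named genes were the 15 each way with the smallest p among genes without overlap, brighter than the median probe set and outside ribosomal and amino acid degradation genes. Added to these were up to 3 members each way per list at an unadjusted p under 0.05, 16 of 20 key genes that were measured, and 8 genes each way called without casein replicate 4. A few further list members are named after their values were seen. RefSeq gave gene lengths (14480 genes) and promoters. Alternatives were quantile, median and SD scaling, other probe set filters, variance models and array weights, the 8 arrays alone, a replicate block, leaving out arrays, and, chosen after seeing the data, the gene-length score as a covariate.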

Additional observations from a re-analysis of the deposited data

Results flagged for a closer look

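In 20 of 358 groups of 4 arrays, 1 array lay apart from the others of its diet by Dixon's test at the 95% level. Chance alone gives about 1 in 20 where groups are not chosen by their values. Most groups here were of genes named for their values in these data, so that rate is not a fair background. Some, Taf10, Hist1h2bg and Proser1 among them, were called by limma without casein replicate 4, a choice that favours genes where this array lies apart. Casein replicate 4 was the array apart for LOC366310 (8.21), Taf10 (9.04), Hist1h2bg (7.52) and RT1-Ba (6.66), where it was high. It was low for Pdhx (7.18) and Proser1 (5.10). Casein replicate 1 was high for the methyltransferase Bhmt (13.40) and for Mrpl42 (9.69), and casein replicate 3 was low for Galk2 (7.41) and Fis1 (8.93). Dairy replicate 1 was low for Ctsk (4.70) and high for Ugt2b1 (8.37), Ivd (9.02), F13b (10.29) and the mean of the endothelial markers (7.19, against 6.61 to 6.65 on the other dairy arrays). Dairy replicate 2 was high for Akr1c3 (4.37). Dairy replicate 3 was low for Gstk1 (8.50), Tpt1 (11.22) and Prdx3 (8.69), and dairy replicate 4 was the array apart for the actin Acta1 (5.39).

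When all probe sets of the array were tested together, limma called 22 of the 13581 probe sets without a gene name here, 17 higher and 5 lower with dairy.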

How the results depend on the processing

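Over 23 alternative settings, 3847 of 4162 recomputed gene values kept their direction and their side of the threshold, 98 lost a call, 201 gained one and 16 changed sign, in 7 genes. Of 1224 recomputed list medians 22 moved by 1 SD or more. The causes were not tested.

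Instead of 13 probe sets, limma called 22 with quantile normalization, 8 with median and SD scaling, 42 over all probe sets in the file, 8 with a trended and robust variance, 1182 with array weights (523 higher, 659 lower), 6 with the 8 arrays of both diets alone, 164 without both arrays of narrowest spread (dairy replicate 3 and casein replicate 4) and 0 with the gene-length covariate, and 3 to 237 when 1 array was left out. Outside ribosomal and amino acid degradation genes the count of 0 became 4 with quantile normalization (Sf3b5, Trub1, Ctsk and Edem2, adjusted p of 0.0331 to 0.0496), 2 over all probe sets (Sf3b5 and Chchd2l3, both 0.0465), 1043 with array weights, 85 without both narrow arrays, and 0 to 163 with 1 array left out (1 without dairy replicate 3, Sf3b5). The 702 probe sets higher at an unadjusted p under 0.05 became 1647 over all probe sets, 1924 with array weights, 1160 without both narrow arrays and 471 to 1338 with 1 array left out, and the 968 lower ones became 1776, 2560, 1504 and 464 to 1906. The weights ran from 0.293 for casein replicate 4 to 2.83 for dairy replicate 2.

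The differences that changed sign were, with the gene-length covariate, Ugp2 (0.164), Cyp2c11 (0.191), Fasn (0.178), Fgf21 (-0.519), Scd (1.09) and Pck1 (0.0233), and with array weights Fgf21 (-0.81) and Galt (-0.302). With 1 array left out Fgf21 ran from -0.266 to 0.992, Scd from -0.979 to 0.38, Pck1 from -0.437 to 0.0833 and Galt from -0.193 to 0.245.

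Replicate numbers are shared between diets. Deviations of same-numbered casein and dairy arrays from their diet means correlated with r of 0.507, -0.512, -0.516 and -0.107. For replicate 1 alone the dairy array that correlated best with the casein array had the same number. A pairing by number was thus not seen throughout, and whether same-numbered samples were handled together was not tested. With the replicate block limma called 19 probe sets, 3 of them outside ribosomal and amino acid degradation genes (Pck2, Gstk1 and Ifi27l2b, adjusted p of 0.0467, 0.041 and 0.0237).

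With 4 arrays per diet, limma reached the threshold only for large differences relative to a median standard error of 0.205. Signals are relative within each array, and food intake, body weight and the hours since the last meal were not given in the sources used here. Gene-length score and diet overlap in part, and blood and immune markers varied between arrays of a diet, so their parts in single genes were not tested.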
